A study of Mus musculus with 56 samples.

Results

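The 62 genes described here encode cytokines, their receptors and parts of the NF-kB pathway: chemokines, interleukins, tumour necrosis factor (TNF) superfamily ligands, colony stimulating factors, the receptors of these, the NF-kB subunits and inhibitors, and the adhesion molecule gene Icam1. They were chosen by gene symbol from the array's annotation, out of 6795 named genes and 8905 features in all. The rule itself uses no measured value, but it was set with earlier results of these data known. A feature is a gene with its probes averaged, or a probe that carries no single gene name. Of the 62 genes, 60 had 1 probe and Il6st and Il7 had 2 each. Ccl7, Ccl20, Cxcl5, Csf1, Il33, Il18, Il1f5 and Il36rn were set aside by name. The annotation gave no probe of a single gene for Nfkb1, Nfkb2, Rel, Tnfaip3, Il6, Il1a, Il1rn, Lif, Osm, Cxcl1 or Csf1r, which were not analysed here.

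RNA came from mouse skin keratinocytes, the barrier-forming epithelial cells, and each 2-colour array carried RNA of cells given transforming growth factor β1 (TGF-β1, 1 ng/ml) beside RNA of the matching cells without it. Balb/c keratinocytes isolated from newborn mice were transduced with a replication-defective retrovirus carrying Ha-ras (ras cells) or kept as primary cultures (primary cells), and were treated for 1, 6, 24 or 48 h. Keratinocytes of Smad3-/- (knockout) and Smad3+/+ (wild type) mice, of a strain labelled C57B1/SVJ, were used as ras and as primary cells at 48 h only. The labels name no control virus for the primary cells, so Ha-ras and transduction cannot be told apart. In the fit, ras cells had 6, 7, 6 and 4 arrays at 1, 6, 24 and 48 h, primary cells had 6, 7, 6 and 3, and each Smad3 genotype had 1 array of ras and 1 of primary cells. The labels do not say that arrays of a group come from separate cultures, so p-values measure the spread between arrays, which may be technical. All values are ratios of treated (Cy5) over untreated (Cy3) RNA, centred on each array's median and taken as log2 because they reach sizes that base 10 would not give, although neither the base nor the direction of the ratio is stated, and a gene was called where the adjusted p of limma, corrected over the 8905 features, lay under 0.05.

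Chemokines are small secreted proteins that draw leukocytes along a gradient, the CC and CXC families being named for the spacing of their first cysteines. Interleukins, TNF and the colony stimulating factors pass signals between immune cells and epithelium, and keratinocytes make many of them. NF-kB is a family of dimeric transcription factors, held in the cytoplasm by IkB proteins until an inflammatory signal has these degraded, and it drives many chemokine genes as well as its own inhibitor gene Nfkbia.

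Arrays differed in spread and some ran against each other. The standard deviation of an array over all features lay between 0.191 and 1.81, and the 2 widest arrays were ras 24 h replicate 1 and primary 6 h replicate 1, at 1.81 and 1.65. Ras 24 h replicate 3 and primary 1 h replicate 3 correlated at r = -0.877 over all features and at -0.941 over the 62 genes, although the labels put the treated RNA in Cy5 on both. Tnfsf11, the gene of the osteoclast factor RANKL, read 7.30 on the first of them and -7.34 on the second. In 5 other pairs the correlation lay between -0.302 and -0.355. Since the labels state the dyes, all directions were kept as labelled, and results that rest on such arrays are given with and without them. The 7 arrays labelled as dye-reversed (5 Balb/c, 2 Smad3 knockout) were left out because their sign is not settled, and their values are given as deposited where they bear on a gene. Over all features, the reversed Balb/c arrays as deposited correlated with their groups at r between -0.065 and 0.129 (median 0.049). Each reversed knockout array correlated with the other knockout array of its cell type at 0.412 in ras and 0.482 in primary cells.

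**Figure D1:**
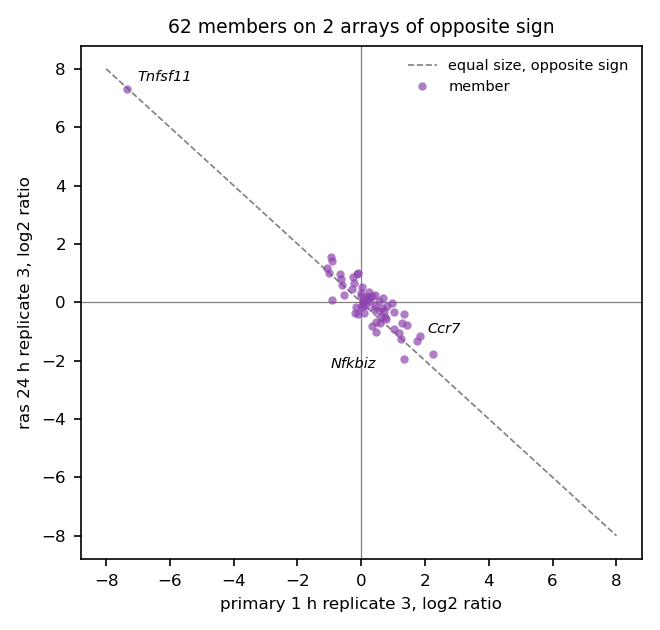
Log2 ratios (treated over untreated) of the 62 genes on ras 24 h replicate 3 (vertical axis) against primary 1 h replicate 3 (horizontal axis), 1 point per gene. The points lie along the dashed line of equal size and opposite sign (r = -0.941), with Tnfsf11 at 7.30 and -7.34.

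Few of the genes responded in the first hours, and most calls fell at 24 h in ras cells and at 48 h in both. In ras cells, 0 of 62 genes were called at 1 h (0.0786% of all features), 1 fell at 6 h (1.73% of all features, 0.371% lower), 3 rose and 5 fell at 24 h (10.5% of all features, 3.84% higher and 6.67% lower), and 3 rose and 2 fell at 48 h (3.5% of all features, 1.9% higher and 1.61% lower). In primary cells, 0 were called at 1 h and 0 at 6 h (0.0112% of all features at each time), 1 rose at 24 h (1.36% of all features, 0.348% higher), and 4 rose and 3 fell at 48 h (8.6% of all features, 5.11% higher and 3.49% lower). Before adjustment, 4 of the 62 genes at 1 h in ras cells, and 8 at 1 h and 7 at 6 h in primary cells, had a p under 0.05, which is 6.45%, 12.9% and 11.3% of the genes against 7.03%, 5.37% and 9.42% of all features. The 12.9% of the genes called in ras cells at 24 h and the 11.3% called in primary cells at 48 h stand near the shares of all features. The 8.06% called in ras cells at 48 h is 5 genes. Ras 24 h replicates 1 and 3 are among 5 arrays that stand apart by their spread or by running against others. Without these 5 arrays 3 of the 8 ras 24 h calls held, those of Cxcl10, Nfkbiz and Ccr7. With array weights in the fit 2 of the 8 held, those of Cxcl10 and Ccl3, while Nfkbiz, Ccr7, Ccr2, Csf2, Il2ra and Ccl8 were not called. In simulated data with the arrays' unequal spread, false calls were most numerous in the ras 24 h response of the 3 comparisons simulated. The median log2 ratio of the 62 at 48 h was -0.23 in ras cells and also -0.23 in primary cells, against -0.02 and -0.05 over all features. In all, 19 of the 62 genes were called in at least 1 comparison and 43 in none.

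**Figure D2:**
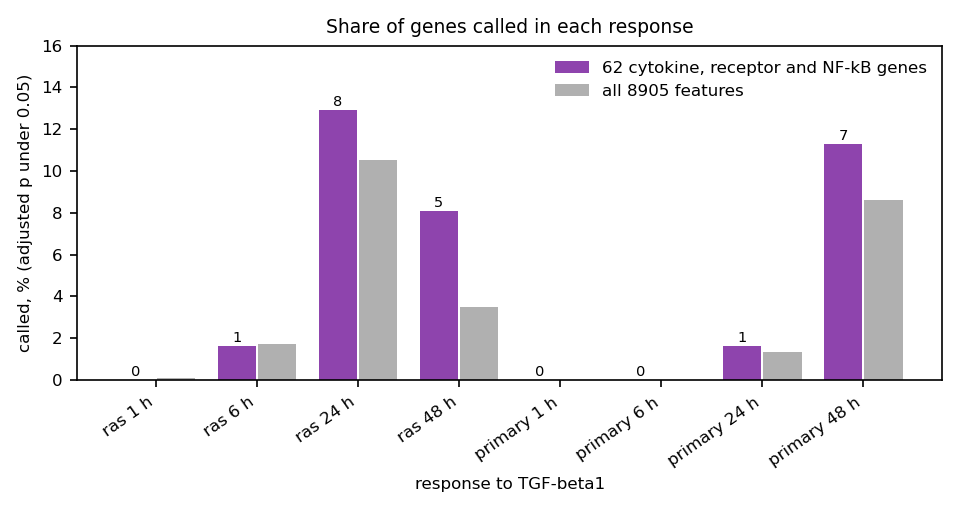
Share of the 62 genes (purple) and of all 8905 features (grey) called in each response, in percent, with the number of the 62 genes above its bar. The shares run side by side at 6 and 24 h in ras cells, and the purple bar stands at 8.06% against 3.5% in ras cells at 48 h.

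**Figure D3:**
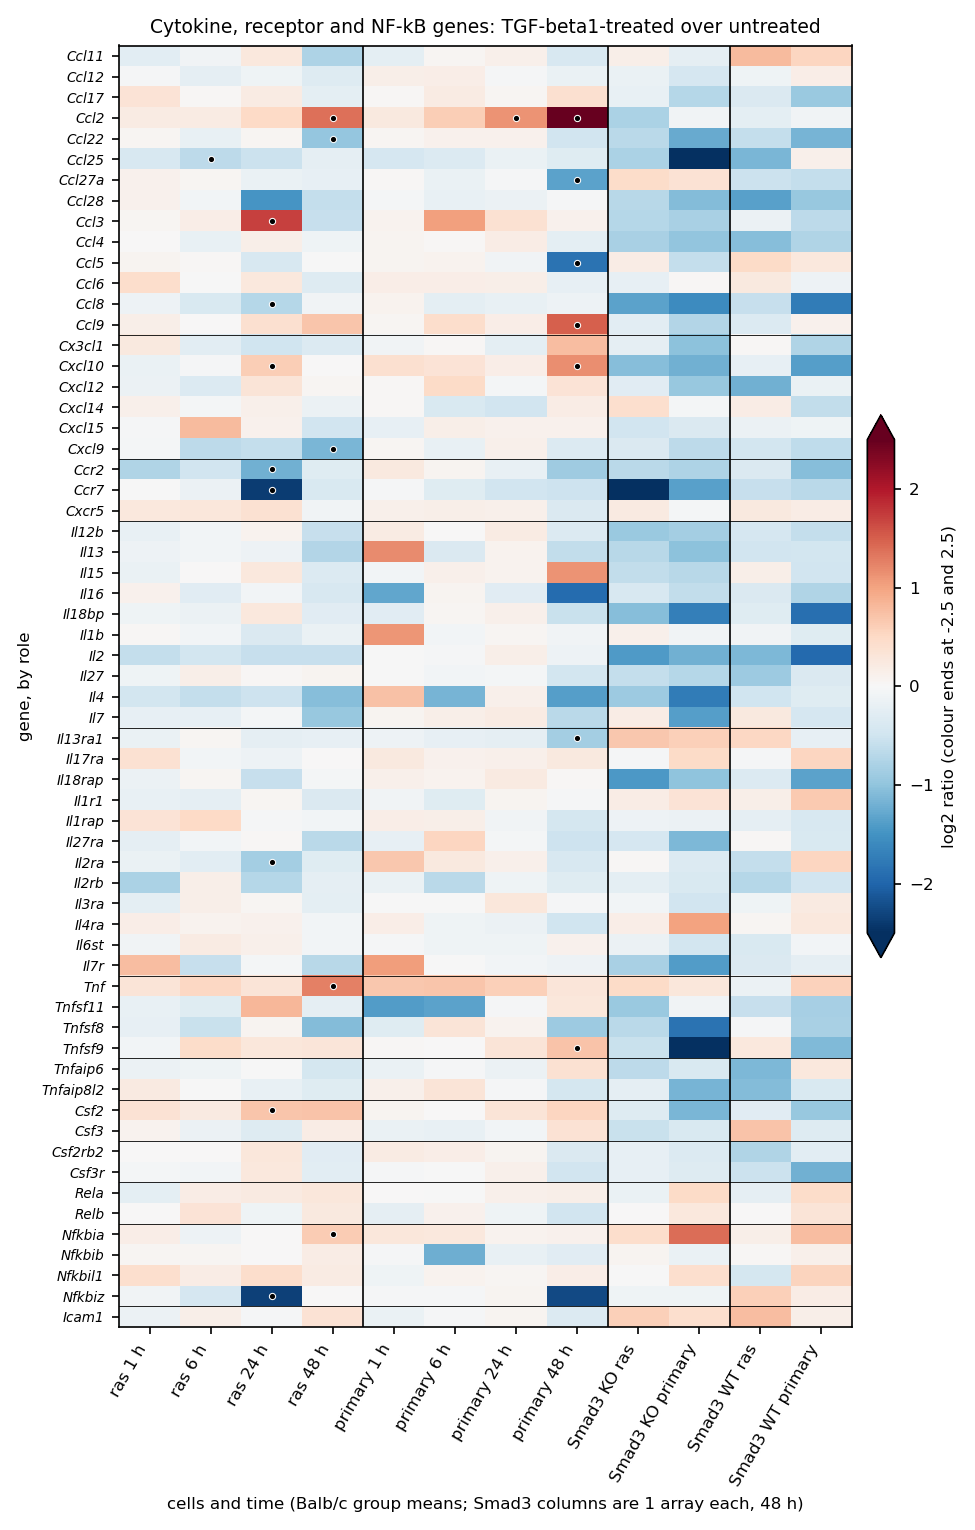
Mean log2 ratio (treated over untreated) of each of the 62 genes, in rows by role, in ras and primary Balb/c cells at 1, 6, 24 and 48 h and on the single Smad3 knockout and wild type arrays at 48 h. Red is higher and blue lower in treated cells, and dots mark called Balb/c responses. Ccl2 is red in both cell types at 48 h, and Tnf is above 0 in every Balb/c column.

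Ccl2, which encodes the monocyte attractant MCP-1, had the smallest adjusted p of the 62 genes and rose late in both cell types. At 48 h it read 1.38, 1.80, 1.79 and 0.57 on the ras arrays and 3.09, 3.01 and 1.90 on the primary arrays. All 7 arrays lay above 0, with every ras array below every primary array. The means were 1.38 (SE 0.26, 2.61-fold, adjusted p = 0.00231) in ras cells and 2.67 (SE 0.30, 6.35-fold, adjusted p = 6.06e-08) in primary cells. At 24 h the ras arrays ran from -0.35 to 1.01 (median 0.61) and the primary arrays from 0.38 to 2.04 (median 1.15). The primary arrays all lay above 0, while 1 ras array did not. The 24 h mean was called in primary cells only (adjusted p = 0.00183), and the ras minus primary difference at 24 h was not (-0.62, adjusted p = 0.476). Late minus early, the mean of 24 and 48 h less that of 1 and 6 h, was 0.73 (SE 0.22, adjusted p = 0.0946) in ras cells and 1.46 (SE 0.23, adjusted p = 9.74e-05) in primary cells, the second of these being the 1 call among the 62 genes (1.93% of all features in primary cells, 1.29% higher). In ras cells 0 of 62 were called late against early (1.27% of all features), with 7 at an unadjusted p under 0.05 (11.3%, against 13.7% of all features). Each of the 4 Ccl2 calls held when any single array of its group was left out. The reversed arrays at 48 h, as deposited, read -1.35 for ras cells and -1.76 and -1.71 for primary cells, opposite in sign to the others, and with them kept as deposited beside a dye term none of the 4 calls held. With them turned, all 4 did, at 1.22 in ras cells at 48 h and at 0.86, 2.24 and 1.38 in primary cells at 24 h, at 48 h and late minus early. With the sign of ras 48 h replicate 4 turned, the ras 48 h call was lost (1.10, adjusted p = 0.0698). With the reversed arrays as deposited, of the 25 calls described here 1 held, that of Ccl25 between Smad3 genotypes.

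A few immune cell markers were called beside Ccl2, while most of the list lay below 0. Of 24 measured markers, 1 rose at 48 h in ras cells (4.17%, against 3.5% of all features), and at that time 4 rose in primary cells while 1 fell (20.8%, against 8.6% of all features). At 48 h 17 of the 24 were below 0 in ras cells and 16 in primary cells. Lyz2, the lysozyme of macrophages and neutrophils, had a log2 ratio of 0.96 (SE 0.22) in ras cells and 2.59 (SE 0.25) in primary cells, with a called difference of -1.63 (adjusted p = 0.0206). The cysteine protease gene Ctss (1.68), the signalling adaptor gene Tyrobp (1.01) and Fcer1g (0.77), which encodes the Fc receptor gamma chain, also rose in primary cells at 48 h, and Cd8a, a T cell coreceptor, fell (-1.75). The list's median was -0.15 in ras cells and -0.09 in primary cells. Of 8 fibroblast markers, 0 were called in ras cells at 48 h (0%, against 3.5% of all features). In primary cells 3 rose at 48 h (37.5%, against 8.6%): Mfap5 (1.77), Twist1 (1.28) and Col1a2 (1.83), the last also a TGF-β target. The fibroblast medians were 0.15 in ras cells and 0.77 in primary cells. Of 14 keratinocyte markers, 1 fell in ras cells at 48 h (7.14%, against 3.5%) and 6 in primary cells (42.9%, against 8.6%). The part of other cells in the Ccl2 result was not tested. Ratios carry no levels, so which markers are absent cannot be read from them, and fewer cells of a type and less RNA per cell cannot be told apart.

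Other CC chemokine genes were called less firmly. Ccl27a, a keratinocyte chemokine that attracts skin-homing T cells, read -0.43, 0.10, -0.64 and 0.14 on the ras 48 h arrays and -1.54, -1.77 and -0.73 on the primary 48 h arrays. The primary arrays all lay below 0 and below every ras array. The ras mean was -0.21 (SE 0.21, adjusted p = 0.668), and the primary mean fell by 1.34 (SE 0.24, adjusted p = 0.00021), a call kept without any single primary array. Its reversed primary arrays, as deposited, read 3.02 and 1.05.

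Ccl9, a myeloid attractant of the mouse, read -0.19, 0.14, 2.42 and 0.39 on the ras 48 h arrays and 0.97, 2.52 and 0.96 on the primary arrays. Primary arrays were all positive, but 1 array of each cell type stood well above the rest. The primary mean of 1.49 (SE 0.34, adjusted p = 0.00341) was 0.97 and not called without replicate 2 (adjusted p = 0.24). Ccl5, which encodes RANTES, read -6.34, 0.50 and 0.32 on the primary 48 h arrays, so its call (-1.84, adjusted p = 0.0269) rested on replicate 1 and the mean without it was 0.41. Ccl3, which encodes MIP-1α, was likewise carried by ras 24 h replicate 2, at 6.60 where the other 5 arrays ran from -0.53 to 1.88. Its mean of 1.71 (adjusted p = 0.0259) was 0.73 without that array and no longer called. Of the other calls in ras cells, that of Ccl8 at 24 h (-0.72, adjusted p = 0.0387) was lost without replicate 1, 3, 5 or 7. That of Ccl22, a ligand of the receptor CCR4, at 48 h (-0.97, adjusted p = 0.032) was lost without replicate 1, 2 or 3, and that of Ccl25 at 6 h (-0.65, adjusted p = 0.0325) without replicate 1, 2, 6, 7 or 8. Ccl25, a thymic and gut chemokine, was below 0 in all 8 responses and on 38 of the 45 Balb/c arrays. Of all features, 1.74% had the same sign on at least as many arrays.

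Neighbouring chemokine genes are given side by side for 48 h, with no test of their likeness. In the RefSeq order of the GRCm38.p6 assembly Ccl2, Ccl11, Ccl12 and Ccl8 are neighbours on chromosome 11, and they stood at 1.38, -0.76, -0.33 and -0.08 in ras cells and at 2.67, -0.41, -0.16 and -0.12 in primary cells. Ccl2 alone of these was called at 48 h. Another run on chromosome 11, Ccl5, Ccl9, Ccl6, Ccl3 and Ccl4, stood at -0.01, 0.69, -0.32, -0.58 and -0.10 in ras cells and at -1.84, 1.49, -0.21, 0.11 and -0.25 in primary cells, where the Ccl5 value rests on replicate 1. On chromosome 8, Ccl22, Cx3cl1 and Ccl17 stood at -0.97, -0.34 and -0.24 in ras cells, with Ccl22 called, and at -0.47, 0.77 and 0.40 in primary cells, with none called. Chemokine genes of a cluster can be similar in sequence, and how far these probes tell them apart is not given in the sources used here.

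Cxcl10, the interferon-induced attractant of activated T cells also called IP-10, was called at 24 h in ras cells and at 48 h in primary cells, while the ras minus primary difference was called at neither time (adjusted p = 0.517 and 0.151). At 48 h it read 0.22, -0.45, 0.06 and 0.23 on the ras arrays and 0.99, 0.98 and 1.53 on the primary arrays. The primary arrays all stood above the ras arrays, which lay on both sides of 0. The mean was 0.02 (SE 0.21, adjusted p = 0.985) in ras cells and 1.17 (SE 0.24, adjusted p = 0.00124) in primary cells, the second call holding without any single array. At 24 h the ras arrays ran from -0.42 to 1.09 (median 0.82) with 5 of 6 above 0, and the primary arrays from -0.50 to 0.52 (median 0.28). The ras mean of 0.62 was called (adjusted p = 0.0197), though not without replicate 1, 6 or 7, and the primary mean of 0.17 was not (adjusted p = 0.934). The negative ras array was replicate 3 of the opposed pair. Cxcl9, a neighbouring gene on chromosome 5 that acts on the same receptor, read -2.72, -0.14, -1.40 and -0.31 at 48 h in ras cells. All 4 were below 0, and the mean of -1.14 was called (adjusted p = 0.0252) but not without replicate 1 or replicate 3. Its 3 primary arrays at 48 h ran from -0.50 to -0.20. Of Cx3cl1, Cxcl12, Cxcl14 and Cxcl15, none was called in any comparison.

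The promoters of Cxcl10, Tnf and Nfkbia are shown because these genes, known NF-kB targets, were called at 48 h in different cell types. Each runs 5′ to 3′ along the gene from 250 bases before to 50 after its start (RefSeq, GRCm38.p6, all on the minus strand), at chr5:92348840-92349139, chr17:35201958-35202257 and chr12:55492598-55492897. Capitals mark matches on either strand to the NF-kB consensus decamer or to the AP-1 motif TGANTCA.
Cxcl10: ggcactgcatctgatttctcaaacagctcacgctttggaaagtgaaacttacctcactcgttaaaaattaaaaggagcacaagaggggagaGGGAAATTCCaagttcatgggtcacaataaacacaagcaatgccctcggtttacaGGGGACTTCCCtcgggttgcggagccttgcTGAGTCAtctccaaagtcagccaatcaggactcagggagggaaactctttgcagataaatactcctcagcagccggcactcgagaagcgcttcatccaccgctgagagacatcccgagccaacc
Tnf: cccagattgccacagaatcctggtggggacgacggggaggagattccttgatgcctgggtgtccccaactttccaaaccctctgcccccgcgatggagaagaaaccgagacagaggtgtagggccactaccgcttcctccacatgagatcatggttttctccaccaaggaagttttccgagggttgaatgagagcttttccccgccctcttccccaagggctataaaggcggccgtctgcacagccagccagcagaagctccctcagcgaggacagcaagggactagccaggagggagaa
Nfkbia: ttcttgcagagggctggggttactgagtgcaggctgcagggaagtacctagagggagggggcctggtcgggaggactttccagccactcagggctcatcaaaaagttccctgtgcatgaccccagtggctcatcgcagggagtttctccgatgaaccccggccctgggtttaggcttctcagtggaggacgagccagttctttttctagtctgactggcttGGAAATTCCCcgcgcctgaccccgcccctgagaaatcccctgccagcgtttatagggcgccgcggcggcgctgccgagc
In Cxcl10 the decamer matched at positions -159 to -150 from the start and again, as overlapping matches, between -104 and -94, with TGAGTCA at -74 to -68. In Nfkbia a match lay at -29 to -20, and the Tnf window held none. Of the 62 genes, 46 had an entry in the promoter table. The decamer was in 6 of these (13.0%, against 8.18% of 27018 promoters of the same length): Ccl9, Csf3r, Cxcl10, Il2ra, Il4ra and Nfkbia. TGANTCA was in 6 (13.0%, against 7.94%), and the palindromic SMAD motif GTCTAGAC was in 0 (against 0.211%). These are letter matches, not sites of binding.

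Among 3 chemokine receptor genes, both calls were in ras cells at 24 h. Ccr7, the lymph-node homing receptor of dendritic and T cells, read -9.35, 0.01, -1.33, -0.72, -1.54 and -1.33 there, against a median of -0.42 on the 6 primary arrays, which ran from -1.10 to 0.12. Of the ras arrays 5 lay below 0, with replicate 1, the widest array, far below. The mean of -2.38 (adjusted p = 0.00564) was -0.98 without that array and still called (adjusted p = 0.0203), and with array weights it was not called. Ccr2, the receptor of the Ccl2 protein, ran from -2.98 to -0.09 (median -1.08) on the ras 24 h arrays and from -1.14 to 0.26 (median -0.04) on the primary ones. All 6 ras arrays lay below 0, and the mean of -1.19 (adjusted p = 0.0268) lost its call without replicate 1 or 3. Cxcr5 was called in none.

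Of 10 genes of interleukins and soluble antagonists, none was called in any response, but 9 had a mean below 0 at 48 h in ras cells and also 9 in primary cells. Their median was -0.49 in ras cells and -0.51 in primary cells at 48 h. The lean below 0 was not particular to them: of all 62 genes, 45 in ras cells and 40 in primary cells had a mean below 0 at 48 h. The share over all features was not counted. Il16, a CD4 ligand, had the lowest mean in primary cells at 48 h (-1.93, adjusted p = 0.0553), from arrays at -5.87, -0.02 and 0.11. A single array thus carried that mean. Il1b, an inflammatory cytokine of keratinocytes and myeloid cells, ran from -0.51 to 6.36 (median 0.17) on the primary 1 h arrays. With 6.36 on replicate 2 alone, its mean of 1.10 had an adjusted p of 0.78. In the other 7 responses its mean stayed between -0.36 and 0.06.

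Of 12 interleukin receptor genes, 2 were called once each. Il13ra1, a chain of the IL-4 and IL-13 receptor, read -0.25, -0.69, -0.20 and 0.35 on the ras 48 h arrays and -0.96, -1.04 and -0.54 on the primary ones. The primary arrays were all below 0, and the mean of -0.85 (adjusted p = 0.0311) lost its call without replicate 1 or 2. Il2ra, the alpha chain of the IL-2 receptor, ran from -1.77 to 0.15 (median -0.90) on the ras 24 h arrays, against -0.57 to 0.45 (median 0.30) on the primary arrays. Its ras mean of -0.84 was called (adjusted p = 0.043) but was lost without replicate 1, 3, 6 or 7. Il6st, the shared signalling chain gp130, had means between -0.11 and 0.21 in all 8 responses, with 2 probes averaged.

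Tnf, which encodes the inflammatory cytokine TNF-α, was above 0 in all 8 response means and on 41 of 45 Balb/c arrays. Of all features, 0.303% had the same sign on as many arrays. At 48 h it read 1.00, 0.83, 2.01 and 1.24 on the ras arrays and 0.50, 0.39 and 0.02 on the primary arrays. Every ras array exceeded every primary array. The ras mean of 1.27 (SE 0.22, 2.41-fold) was called (adjusted p = 0.000726), also without any single array, and the primary mean of 0.30 (SE 0.25) was not (adjusted p = 0.538). At 1, 6 and 24 h the means were 0.32, 0.51 and 0.33 in ras cells and 0.68, 0.70 and 0.59 in primary cells, none of them called. All 45 arrays have treated RNA in Cy5, and a part of the dyes in this was not tested. The reversed ras array at 48 h read -1.41 as deposited. The Tnf call held with reversed arrays turned (1.25, adjusted p = 0.000168). It did not hold with them kept as deposited (0.46), or with the sign of ras 48 h replicate 4 turned (0.65).

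Of the other TNF superfamily ligand genes, Tnfsf9, which encodes 4-1BB ligand, read 0.79, -0.01, 0.15 and 0.27 on the ras 48 h arrays and 0.88, 0.46 and 0.79 on the primary ones. The primary mean of 0.71 (adjusted p = 0.0401) was called with all 3 arrays, and lost without any of them. Tnfsf11 and Tnfsf8 were not called, nor were the TNF-induced genes Tnfaip6 and Tnfaip8l2. Csf2, the gene of the myeloid growth factor GM-CSF, was above 0 in all 8 response means. It lay above 0 on 33 of the 45 Balb/c arrays, and 12.6% of all features had the same sign on at least as many. At 24 h its ras arrays ran from 0.07 to 1.71 (median 0.63) and its primary arrays from -0.16 to 1.41 (median 0.14). All 6 ras arrays were above 0, and the ras mean of 0.69 was called (adjusted p = 0.0227), though not without replicate 3, 6 or 7. The difference between cell types at 24 h was 0.37 (adjusted p = 0.662). Csf3, Csf3r and Csf2rb2 were not called.

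**Figure D4:**
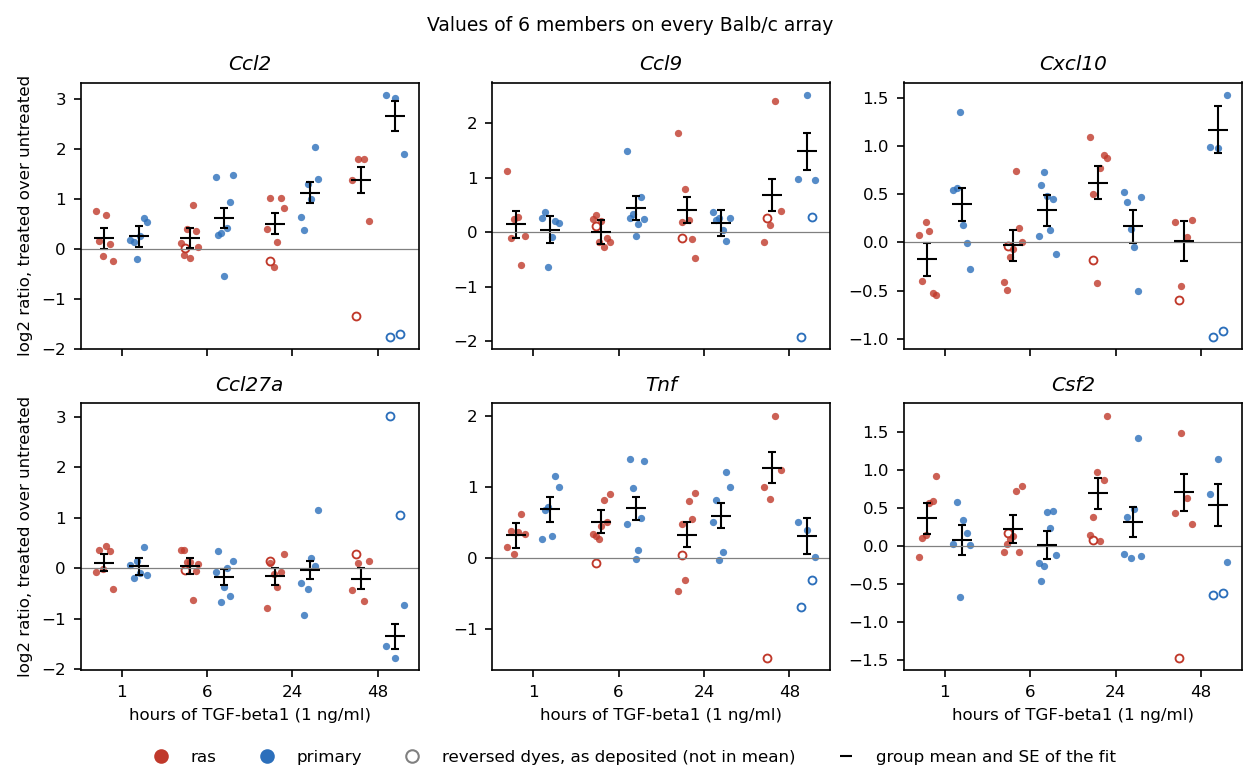
Log2 ratio (treated over untreated) of Ccl2, Ccl9, Cxcl10, Ccl27a, Tnf and Csf2 on every Balb/c array, ras cells in red left of primary cells in blue, by hours of TGF-β1. Bars are group means with the standard error of the fit, and open circles are dye-reversed arrays as deposited, outside the means. At 48 h all filled ras points lie below all filled primary points for Ccl2 and Cxcl10 and above them for Ccl27a and Tnf.

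Of the NF-kB subunit and IkB genes, Nfkbia and Nfkbiz were called once each, both in ras cells. Rela, the transactivating p65 subunit, had means between -0.25 and 0.28, and Relb, the subunit of the alternative pathway, between -0.48 and 0.34, with none called. Nfkbia, the inhibitor IkBα and itself an NF-kB target, read 0.80, 0.39, 0.84 and 0.51 on the ras 48 h arrays and 0.72, -0.21 and -0.20 on the primary ones. The ras arrays were all positive and overlapped the highest primary array. Its ras mean of 0.64 (SE 0.18) was called (adjusted p = 0.0393), though not without replicate 1 or 3, and its reversed ras array read 0.45 as deposited. Nfkbiz, which encodes the nuclear IkB family protein IkBζ, ran from -9.18 to -0.16 (median -1.18) on the ras 24 h arrays. On the primary arrays at 24 h it ran from -0.13 to 0.28 (median 0.04). All 6 ras arrays lay below all 6 primary arrays. Its ras mean of -2.33 (adjusted p = 0.0163) was -0.97 without replicate 6 and no longer called (adjusted p = 0.178). Nfkbib, which encodes IkBβ, read -7.32 on primary 6 h replicate 1 alone and was not called. Icam1, the leukocyte adhesion receptor and an NF-kB target, had means between -0.33 and 0.36.

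Genes around the pathway are given by list, each beside the share of all features. Of 22 measured genes of the NF-kB activation machinery, 1 was called in ras cells at 24 h (4.55%, against 10.5%), 2 in ras cells at 48 h (9.09%, against 3.5%) and 2 in primary cells at 48 h (9.09%, against 8.6%). Map3k14, the NIK kinase of the alternative pathway, rose in ras cells at 24 h (0.69, adjusted p = 0.0214). In ras cells at 48 h the TAK1 adaptor gene Tab2 rose (0.58) and Traf4 fell (-1.87). At that time 2 fell in primary cells and 0 rose: the IkB-like gene Bcl3 (-1.18) and Malt1 (-0.70), a paracaspase of the CARD pathway. The machinery's median was 0.05 in ras cells and 0.02 in primary cells at 48 h. Of 24 other NF-kB target genes, 3 rose and 2 fell at 48 h in ras cells (20.8%, against 3.5% of all features), while in primary cells 3 rose and 0 fell (12.5%, against 8.6%). The 2 that fell in ras cells were the iron-binding lipocalin gene Lcn2 (-0.99) and Hif1a (-2.25), the hypoxia-inducible factor. The gelatinase gene Mmp9 rose by 1.81 in ras cells and by 2.74 in primary cells, and the hyaluronan receptor gene Cd44 rose in both. The list's medians at 48 h were 0.15 and 0.19. Earlier, in ras cells, 2 of these 24 genes were called at 1 h (8.33%, against 0.0786% of all features). At 6 h 1 was called (4.17%, against 1.73%), and at 24 h 3 were (12.5%, against 10.5%). F3 rose at 1 h (1.22) and at 6 h (1.41), and Ier3 fell at 1 h (-0.95). Plau (0.91), Irf7 (0.78) and Mmp9 (1.08) rose at 24 h. In primary cells 0 were called at 1, 6 or 24 h. Of 22 JAK-STAT and SOCS genes, 3 were called in ras cells at 24 h (13.6%, against 10.5% of all features), 1 in ras cells at 48 h (4.55%, against 3.5%) and 2 in primary cells at 48 h (9.09%, against 8.6%). Socs6 rose at 48 h in both (0.48 in ras cells and 0.56 in primary cells), and Socs1 (-0.68) and Cish (-0.93), feedback inhibitors of cytokine signalling, fell in ras cells at 24 h. The STAT inhibitor gene Pias3 rose there (0.46), and the kinase gene Jak2 fell in primary cells at 48 h (-1.22). Of 10 TNF and Toll-like receptor genes, 0 were called in ras cells at 48 h and 2 rose in primary cells (20.0%, against 8.6% of all features), Cd40 (0.88) and Tnfrsf11b (1.37), the decoy receptor osteoprotegerin. Of 22 TGF-β and SMAD target genes, 4, 11, 3 and 6 rose in ras cells at 1, 6, 24 and 48 h, and 1, 0, 3 and 7 in primary cells. With both directions counted, 18.2%, 50%, 22.7% and 27.3% were called in ras cells, against 0.0786%, 1.73%, 10.5% and 3.5% of all features. In primary cells the shares were 4.55%, 0%, 13.6% and 31.8%, against 0.0112%, 0.0112%, 1.36% and 8.6%. The 2 that fell did so in ras cells at 24 h, the inhibitory Smad gene Smad6 (-1.22) and the early response gene Klf10 (-0.57).

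Set directly against each other, ras and primary cells differed in the called sense for none of the 62 genes. Ras minus primary gave 0 calls at 1 and 6 h (0% of all features), 0 at 24 h (0.0449% of all features) and 0 at 48 h (0.202% of all features). At an unadjusted p under 0.05 there were 3, 4, 8 and 10 of the 62 at 1, 6, 24 and 48 h. These are 4.84%, 6.45%, 12.9% and 16.1% of the genes, against 4.17%, 4.59%, 10.3% and 6.67% of all features. Arrays of the cell types did not overlap for 1 gene at 24 h, Nfkbiz, with ras lower (0.382% of all features, 0.157% with ras lower). At 48 h they did not overlap for 5 of the 62 genes (6.01% of all features), with ras higher for Ccl27a and Tnf (1.91%) and ras lower (4.1%) for Ccl2, Cxcl10 and Tnfaip6. The differences were 1.14 (SE 0.32, adjusted p = 0.153) for Ccl27a and 0.96 (SE 0.33, adjusted p = 0.31) for Tnf. They were -1.28 (SE 0.40, adjusted p = 0.2) for Ccl2, -1.15 (SE 0.32, adjusted p = 0.151) for Cxcl10 and -0.83 (SE 0.25, adjusted p = 0.2) for Tnfaip6, a hyaluronan-binding protein induced by TNF. Calls in a single cell type above are therefore not shown to differ between cell types.

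In Smad3 cells at 48 h, 2 of the 62 genes were called lower in knockout than in wild type (1.74% of all features, 1.3% lower). The Smad3 protein is a transcription factor that the TGF-β receptor activates. Each cell type had 1 array per genotype, so the test borrows the spread of the Balb/c groups and has no replicate check of its own. Ccl25 read -0.80 on the knockout ras array and -3.82 on the knockout primary array, against -1.15 and 0.13 on the wild type ras and primary arrays. Only the primary cells were lower in the knockout. The reversed knockout arrays, as deposited, read -0.43 for ras and -3.68 for primary cells. The mean difference was -1.80 (SE 0.45, adjusted p = 0.0202). It was not called with arrays scaled to the same spread (-0.71) or with reversed arrays turned (-0.47).

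Tnfsf9 read -0.56 and -3.25 on the knockout ras and primary arrays, against 0.25 and -1.11 in wild type. Both cell types were lower in the knockout (mean difference -1.47, SE 0.39, adjusted p = 0.0338). This call was also lost with scaled arrays (-0.61) and with reversed arrays turned (-0.28) or as deposited (-0.80). The reversed knockout arrays read -0.80 for ras and -0.97 for primary cells, so the large primary value was not seen on the reversed array. Ccr7 had a larger difference, -3.18, that was not called (adjusted p = 0.49), with -6.25 on the knockout ras array and -0.76 on its reversed partner.

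Some genes called in Balb/c cells at 48 h are given here for the Smad3 arrays, with no test between strains. Ccl2 read -0.79 and -0.10 on the knockout ras and primary arrays and -0.24 and -0.09 on the wild type ones, all 4 below 0. Its reversed knockout arrays read 1.33 and 1.38 as deposited. Cxcl10 read -1.06 and -1.21 in knockout ras and primary cells and -0.21 and -1.38 in wild type. Tnf read 0.48 and 0.29 in the knockout and -0.15 and 0.58 in wild type. The Balb/c and Smad3 cells differ in strain, so strain and experiment cannot be told apart. Smad3 itself had treated over untreated ratios of -0.68 and -2.79 on the knockout ras and primary arrays and -0.31 and -0.84 in wild type, which compare treatment within a genotype and do not check the deletion.

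**Figure D5:**
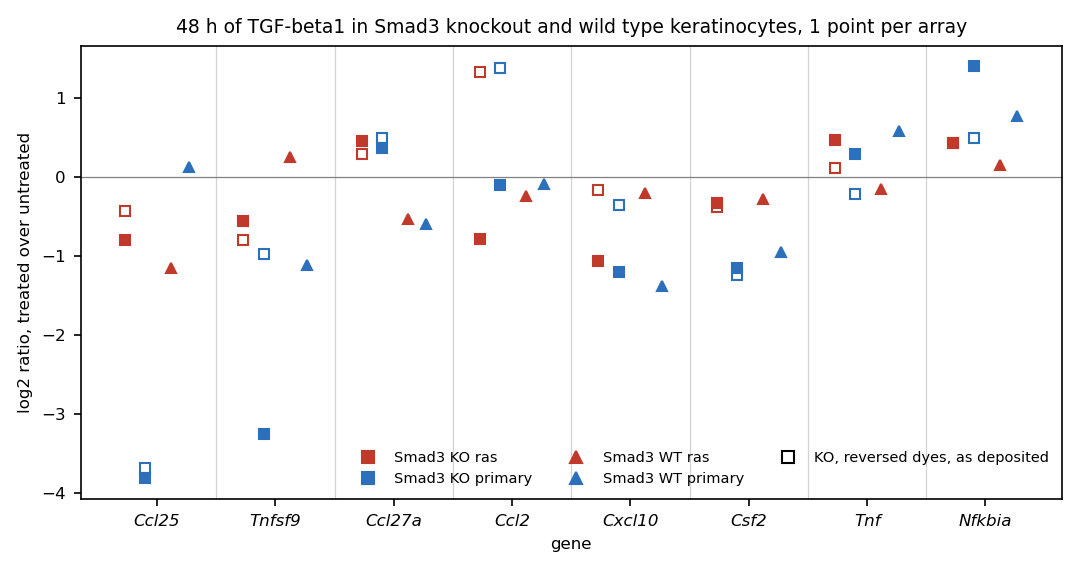
Log2 ratio (treated over untreated, 48 h) of 8 genes on single arrays of Smad3 knockout (squares) and wild type cells (triangles), ras in red and primary in blue, with open squares for dye-reversed knockout arrays as deposited. Ccl25 lies at -3.82 and -3.68 knockout primary arrays and at 0.13 on the wild type one, while Ccl2 lies below 0 on all 4 filled points.

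Values far from 0 were more common among the 62 genes than among all features. Of 3038 values in the fit, 32 exceeded a size of 3 (1.05%, against 0.702% of all feature values). These lay in 21 of the 62 genes (33.9%, against 23.2% of all features). Of the 21, 12 had such a value on exactly 1 array, which was not counted over all features. The median standard deviation over arrays was 0.600 for the 62 genes and 0.488 for all features. Spot brightness was not used here, so whether these ratios come from dim spots was not tested.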

How the data were processed

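The deposited table holds log2 ratios of 9596 probes on 56 arrays, used as the authors deposited them. The sources used here give neither the base of the logarithm nor the scanning, background correction or normalization. Base 2 was taken from the size of the values, and Cy5 over Cy3 as the direction, with treated RNA in Cy5 per the labels. Symbols came from the platform annotation: 7486 probes had 1 gene symbol, 483 several and 1627 none listed. Arrays were centred on their medians, and probes of 1 symbol were averaged.

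Group means and differences between them were fitted with limma 3.58.1 (lmFit, eBayes, R 4.3.3) on the 49 arrays with treated RNA in Cy5, in a single fit of all groups. Tests were two-sided, with Benjamini-Hochberg adjustment over 8905 features in each of 15 comparisons. The fit assumes that all arrays are equally noisy. Tested on simulated data with the real arrays' unequal spread, it gave more false calls than the threshold allows, in number most in the ras 24 h response of the 3 comparisons simulated, so calls are best read with their values on single arrays. No depth stands behind a ratio, and precision is limited by how many arrays there are.

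Named are the genes called in any comparison, a fixed set of pathway genes and the extremes of each role. Of each list of other genes, examples from those called are named, with counts of the rest. Extremes not described above were Il4 (-0.54), Il15 (0.13), Il2rb (-0.36), Il17ra (0.12) and Nfkbil1 (0.18), as means of the 8 Balb/c responses. None of these was called in any comparison. The genes, lists and rules were chosen with earlier results of these data known. Alternatives kept or turned the 7 reversed arrays with a dye term, left out centring, scaled or weighted arrays, used blocks of neighbouring mAdb experiment IDs, tested each probe, used the replicate number as a block, and left out each array in turn. Leaving out 5 arrays that stand apart and turning single arrays were added after the data were seen. Promoter windows come from RefSeq (GRCm38.p6).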

Additional observations from a re-analysis of the deposited data

Results flagged for a closer look

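A single array stood far from the rest of its group for 11 of the 107 results tested for this (10.3%). In ras cells these were Ccl3 at 24 h with 6.60 on replicate 2, Nfkbiz at 24 h with -9.18 on replicate 6, Ccr7 at 24 h with -9.35 on replicate 1, Cx3cl1 at 1 h with 1.18 on replicate 1, Rela at 6 h with 1.01 on replicate 6 and Il6st at 6 h with 2.13 on replicate 1. In primary cells they were Il1b at 1 h with 6.36 on replicate 2, Nfkbib at 6 h with -7.32 on replicate 1, Cxcl12 at 6 h with 3.43 on replicate 3, Icam1 at 24 h with 1.49 on replicate 6 and Cx3cl1 at 24 h with -1.35 on the same replicate. Over all 62 genes and all groups of 4 or more arrays the share was 13.8% (60 of 434). The rule gives about 1 in 20 groups where arrays vary alike and normally. These arrays differ in spread, and the share over all features was not counted, so no excess over chance is read from these shares.

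A difference between responses was called for Ccl2, Ccl25 and Tnfsf9. Ccl2 was higher late than early in primary cells, by 1.46 on the log2 scale. Tnfsf9 (-1.47) was lower in Smad3 knockout than in wild type cells, and so was Ccl25 (-1.80) on average, though not in ras cells.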

How the results depend on the processing

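Of the 25 called values, 25 held with each probe tested on its own, 24 with no centring, 20 without the 5 arrays that stand apart, 18 with blocks of mAdb experiment IDs, 17 with array weights and 12 with arrays scaled to the same spread. With the reversed arrays turned 9 held, and with them kept as deposited 1 held, Ccl25 between Smad3 genotypes. Of the 23 values that could be refitted without single arrays, 8 held without every one: the 4 of Ccl2, and Ccl27a and Cxcl10 in primary cells at 48 h, Ccr7 in ras cells at 24 h and Tnf in ras cells at 48 h. The direction turned for Ccl27a at 48 h in primary cells (0.11, reversed arrays as deposited), Ccl25 at 6 h in ras cells (0.11, reversed arrays turned) and Ccl5 at 48 h in primary cells (0.41 without replicate 1, and down to -3.01 without the others). The cause was not tested.

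The number of the 62 genes called, as reported, was 0, 1, 8 and 5 in ras cells and 0, 0, 1 and 7 in primary cells at 1, 6, 24 and 48 h. It moved as follows. With reversed arrays as deposited it was 0 at 6, 24 and 48 h in ras cells, 0 at 24 h and 1 at 48 h in primary cells, 0 for primary late minus early and 1 for Smad3. With them turned it was 0 at 6 h, 0 at 24 h and 2 at 48 h in ras cells, 2 at 24 h in primary cells, 1 for ras minus primary at 48 h, 1 and 2 for late minus early in ras and primary cells, and 0 for Smad3. Scaled arrays gave 2 at 6, 24 and 48 h in ras cells, 1 at 6 h and 2 at 24 h in primary cells, and 0 for Smad3. Array weights gave 6 at 6 h in ras cells, 3 at 24 h in primary cells and 1 for ras minus primary at 24 h. They gave 1 and 3 for late minus early in ras and primary cells. In ras cells at 24 h they gave 6, with 5 higher and 1 lower, and 2 of the 8 reported calls were among these. Blocks of mAdb experiment IDs gave 0 at 6 h and 3 at 48 h in ras cells and 2 for primary late minus early. Without the 5 arrays that stand apart it was 3 at 6 h and 4 at 24 h in ras cells, 1 at 6 h and 2 at 24 h in primary cells, 1 for ras minus primary at 48 h and 1 for ras late minus early. Turning 1 array gave 0 at 6 h in ras cells and 1 for ras late minus early (ras 6 h replicate 6), 4 at 24 h in ras cells (replicate 3), 0 at 48 h in ras cells (replicate 4) and 2 at 6 h in primary cells (replicate 4).

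Leaving out single arrays gave 0 to 0, 0 to 1, 3 to 9 and 2 to 6 in ras cells and 0 to 0, 0 to 1, 1 to 2 and 5 to 8 in primary cells at 1, 6, 24 and 48 h. Ras minus primary gave 0 to 0 at 1, 6 and 24 h and 0 to 2 at 48 h, and late minus early gave 0 to 1 in ras and 1 to 3 in primary cells. Same-numbered ras and primary arrays did not deviate together (5 of 19 pairs had a correlation over 0.1, median 0.0484, and 5 correlated best with their own number), so the numbers were not taken to pair the samples. With replicate number as a block, ras minus primary stayed at 0 at all 4 times and late minus early at 0 in ras and 1 in primary cells, Ccl2 at 1.47 (adjusted p = 0.000182). That block changed no call. The Smad3 difference has 1 array a group and could not be refitted without an array.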
